A study of Mus musculus with 21 samples.

Results

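The genes Egr1, Egr2, Egr3, Egr4, Arc, Npas4, Nr4a1, Nr4a3 and Ier2 were examined in the midbrain of mice treated with the neurotoxin MPTP and the muscle-derived peptide irisin. All 9 of the 9 genes were found by name in both deposited RNA-seq tables, which listed 33829 genes (pre-treatment experiment) and 55385 genes (delayed experiment), and all 9 passed the filter on low counts in both. They were chosen by name once differences in these same tables were known, and which comparison put them forward is not known. Values of the pre-treatment experiment are given as a description. Counts of calls by the main test (edgeR) stand beside those of all genes, and nothing is read from them. Calls by a second test (DESeq2) are given in both experiments without the share of all genes that it called, so they have no background beside them. Adjusted p-values of single genes among the 9 are given for the delayed experiment, and these too may rest on values used in the choice.

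The samples were 21 male C57BL/6 mice, labelled as 6 weeks old, in 7 groups of 3, and every injection was intraperitoneal. In the pre-treatment experiment, MPTP mice received ddH2O for 5 days and then MPTP at 30 mg/kg per day for 5 days, irisin-MPTP mice received irisin at 200 μg/kg per day for 5 days before the same MPTP course, and control mice received ddH2O for 10 days. In the delayed experiment, the order was turned around: MPTP mice received MPTP for 5 days and then ddH2O for 5 days, MPTP-irisin mice received MPTP and then irisin for 5 days each, irisin mice received ddH2O and then irisin, and control mice received ddH2O for 10 days. The brain tissue was taken after perfusion and the nigral region was cut out by hand, so each sample mixed neurons, glia and vessels, and fewer cells of a type and less RNA per cell cannot be told apart. Irisin without MPTP is analysed here in the delayed experiment only. In the pre-treatment experiment, an effect of irisin by itself and an altered response to MPTP therefore cannot be told apart.

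These genes are immediate-early genes, whose transcription starts within minutes of a stimulus from factors that are already present in the cell. Calcium entry and MAP kinase signalling act on serum response factor, which binds the CArG box with its partner Elk proteins, and on CREB, which binds the cyclic AMP response element (CRE). Egr1, Egr2, Egr3 and Egr4 are zinc finger transcription factors, and Nab1 and Nab2 are corepressors that act on them. Nr4a1 and Nr4a3 are orphan nuclear receptors that work without a known physiological ligand, and their relative Nr4a2 (Nurr1) is required to make and keep dopaminergic neurons. Npas4 is a transcription factor that responds to depolarization in neurons, Arc encodes a synaptic protein that controls AMPA receptor endocytosis, and Ier2 encodes a short-lived nuclear protein induced by growth factors and stress.

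The RefSeq promoter windows of GRCm38.p6 (250 bases before to 50 bases after a transcription start) covered 5 of the 9 genes, Egr2 with 5 windows and Egr4, Nr4a1, Nr4a3 and Npas4 with 1 each. The windows of Egr2, Nr4a1, Nr4a3 and Npas4 are shown because they place the elements named above beside genes whose group patterns, described further on, were not alike. Capitals mark the CArG box and the CRE half-sites (TGACG, or CGTCA on the other strand). Of the 32851 promoter windows of that length, 1.63% held a CArG box and 20.8% held a CRE half-site. The Egr2 window shown (chr10:67537619-67537918, plus strand) held 1 CArG box and 2 half-sites, the Nr4a1 window (chr15:101266596-101266895, plus strand) 4 half-sites, the Nr4a3 window (chr4:48045055-48045354, plus strand) 4 half-sites and the Npas4 window (chr19:4989922-4990221, minus strand) 2 half-sites.
Egr2: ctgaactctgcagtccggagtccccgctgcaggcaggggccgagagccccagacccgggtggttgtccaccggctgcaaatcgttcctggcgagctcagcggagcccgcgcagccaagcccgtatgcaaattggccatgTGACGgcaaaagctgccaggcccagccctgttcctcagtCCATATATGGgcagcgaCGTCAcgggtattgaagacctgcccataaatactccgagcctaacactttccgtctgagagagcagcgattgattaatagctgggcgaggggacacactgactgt
Nr4a1: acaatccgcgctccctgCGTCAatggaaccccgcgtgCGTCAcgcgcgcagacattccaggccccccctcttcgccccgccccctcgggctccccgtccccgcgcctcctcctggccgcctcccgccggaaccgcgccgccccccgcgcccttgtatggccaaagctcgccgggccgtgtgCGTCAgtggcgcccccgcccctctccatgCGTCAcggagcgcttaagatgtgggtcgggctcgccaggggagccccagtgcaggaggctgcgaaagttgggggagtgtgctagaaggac
Nr4a3: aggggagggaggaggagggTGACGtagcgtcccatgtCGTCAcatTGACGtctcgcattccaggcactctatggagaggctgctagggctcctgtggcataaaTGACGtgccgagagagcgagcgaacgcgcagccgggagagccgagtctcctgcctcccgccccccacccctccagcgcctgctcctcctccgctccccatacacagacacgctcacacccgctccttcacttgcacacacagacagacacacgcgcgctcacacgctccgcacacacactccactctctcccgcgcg
Npas4: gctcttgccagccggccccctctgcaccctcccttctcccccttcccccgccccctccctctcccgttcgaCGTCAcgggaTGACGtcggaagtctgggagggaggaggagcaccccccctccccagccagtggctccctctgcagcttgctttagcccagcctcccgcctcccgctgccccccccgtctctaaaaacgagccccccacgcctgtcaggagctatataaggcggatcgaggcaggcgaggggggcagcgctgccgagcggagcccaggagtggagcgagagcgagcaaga
A match is a description of the letters and not a bound site. Of the other Egr2 windows, 2 overlapped the one shown and held the same 3 elements, 1 upstream (chr10:67537316-67537615) held a CArG box and no half-site, and 1 further upstream (chr10:67535249-67535548) held none. The Egr4 window (chr6:85513540-85513839, minus strand) held 2 half-sites and no CArG box.

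In the tables, which carry GRCm38 coordinates, the gene bodies lie at chr10:67535475-67542188 (Egr2, ENSMUSG00000037868), chr15:101254269-101274795 (Nr4a1, ENSMUSG00000023034), chr4:48045153-48086445 (Nr4a3, ENSMUSG00000028341), chr19:4984355-4990316 (Npas4, ENSMUSG00000045903), chr14:70077203-70082614 (Egr3, ENSMUSG00000033730), chr6:85511121-85513589 (Egr4, ENSMUSG00000071341), chr15:74669083-74672570 (Arc, ENSMUSG00000022602) and chr8:84661331-84662852 (Ier2, ENSMUSG00000053560). No other listed gene overlapped the coordinates of any of the 9 genes. Library totals ran from 66.7 M to 75.6 M counts for the pre-treatment mice and from 48.8 M to 77.2 M for the delayed-treatment mice. Levels are given as CPM (a gene's share of its library's counts, scaled to 1 M counts) after scaling by the trimmed mean of M-values (TMM), with factors of 0.972 to 1.01 and 0.984 to 1.02. Dopaminergic markers were present in every library, with Th (tyrosine hydroxylase) at 21.3 to 63.3 CPM. In the pre-treatment experiment, MPTP replicate 2 stood apart, with a sum of 3 choroid plexus markers of 1593 CPM against 6.44 to 21.6 CPM in the other mice. MPTP replicates 1 and 2 also had the lowest and highest sums of 5 forebrain neuron genes, described further on, at 11.4 and 102 CPM. The other mice of that experiment were at 25.8 to 53.9 CPM. In the delayed experiment, MPTP replicate 2 stood apart in cortical markers, with Tbr1 at 7.41 CPM against 0 to 1.54 CPM in the other mice, while the choroid plexus sum ran from 32.8 to 1610 CPM over all groups of that experiment.

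Compared per length, Egr4 and Egr2 had the lowest levels of the 9 genes in every group, and Egr1 and Arc the highest in every group but the irisin mice, where Nr4a1 came before Arc. In control mice of the pre-treatment experiment, the FPKM deposited by the authors averaged 11.5 for Egr1, 7.02 for Arc, 5.04 for Nr4a1, 2.09 for Ier2, 2.02 for Npas4, 1.67 for Nr4a3, 0.908 for Egr3, 0.214 for Egr4 and 0.0841 for Egr2. In that order, Egr1 and Arc overlapped between mice, as did Ier2 with Npas4 and Npas4 with Nr4a3, while the other neighbours did not. In control mice of the delayed experiment, the mean FPKM was 12.4 for Egr1, 9.79 for Arc, 6.33 for Nr4a1, 5.15 for Ier2, 1.55 for Npas4, 1.40 for Egr3, 1.01 for Nr4a3, 0.367 for Egr4 and 0.0668 for Egr2. There, the neighbours from Egr1 to Ier2 overlapped, as did Npas4, Egr3 and Nr4a3, and gaps without overlap lay below Ier2, Nr4a3 and Egr4. The order at the top of the scale differed in 2 groups: in irisin mice Nr4a1 (9.58) stood above Arc (8.63) with overlap, and in MPTP mice of the delayed experiment Arc (12.9) stood above Egr1 (11.3) with overlap. The 2 tables were normalized separately, so levels were not tested between experiments.

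**Figure D1:**
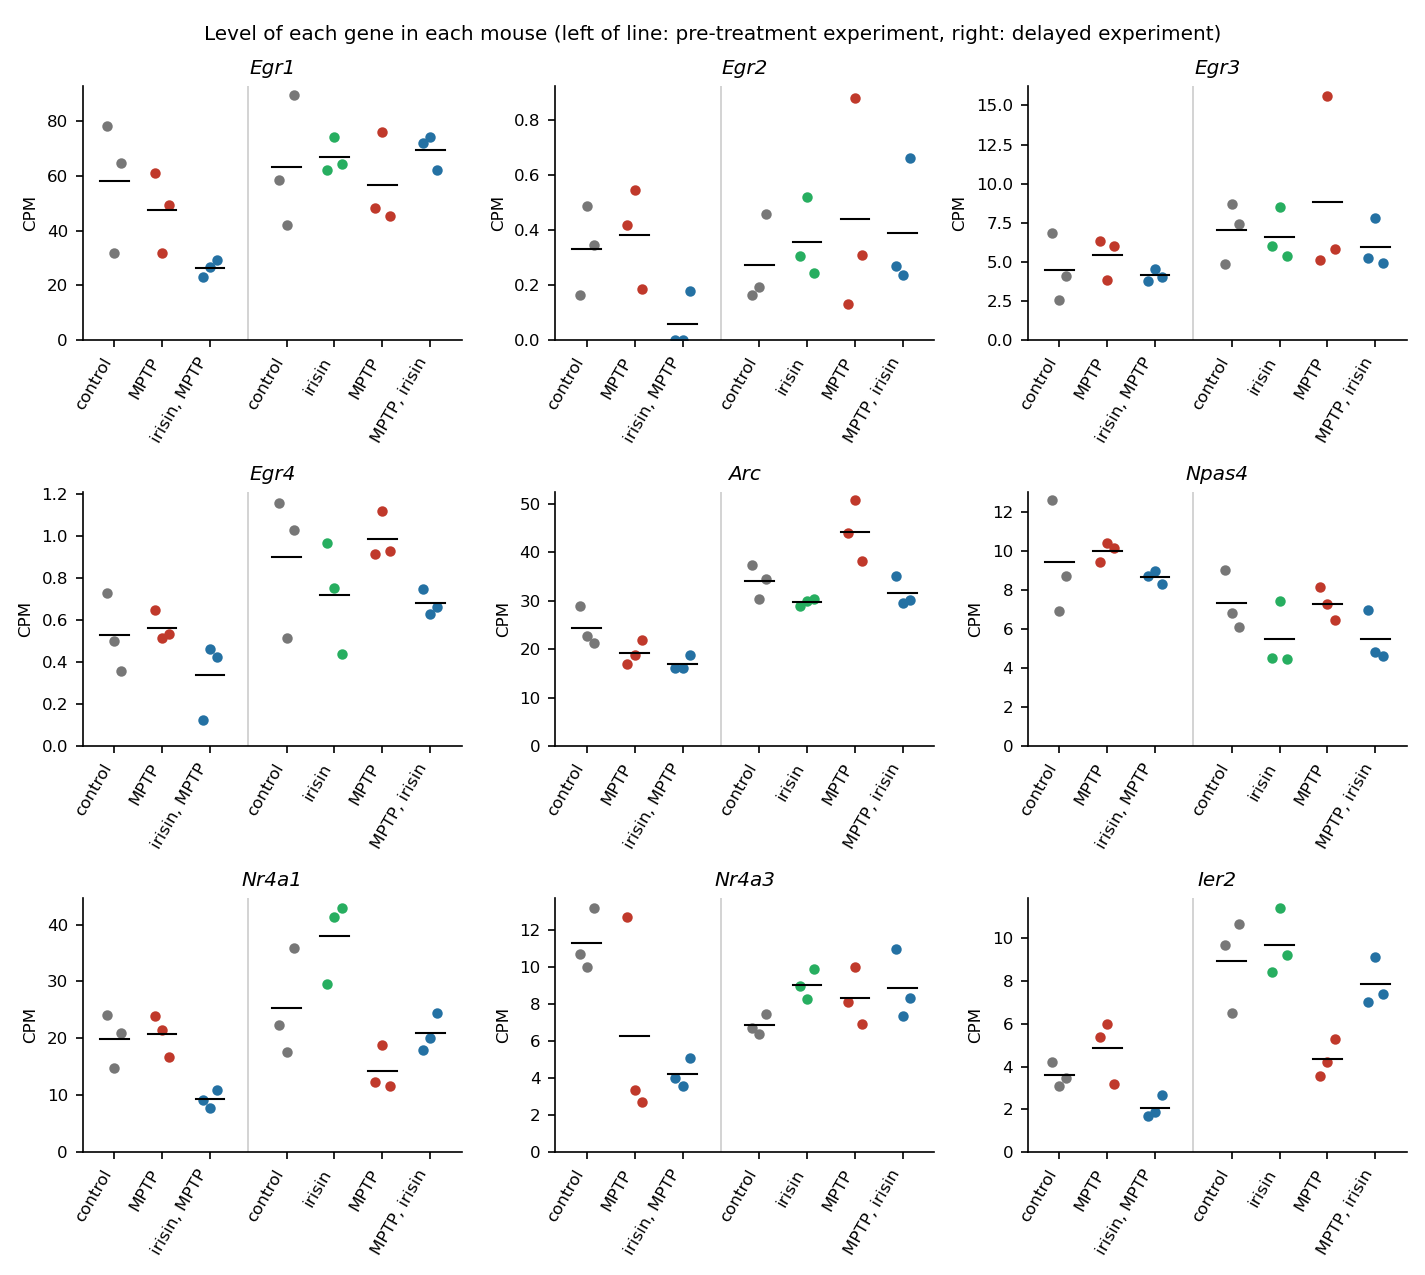
Level of each gene in CPM (TMM scaled, vertical axis from 0) in each of the 21 mice; each point is a mouse, the black bar is the mean of 3 mice, and the grey line separates the pre-treatment experiment (left) from the delayed experiment (right). Nr4a1 in irisin-MPTP mice lay between 7.78 and 11.0 CPM, below every other mouse of its experiment, and Ier2 in the MPTP mice of the delayed experiment lay between 3.55 and 5.30 CPM, below every other mouse of that experiment.

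In the pre-treatment experiment, irisin was given before MPTP. All 9 genes had lower fitted levels in irisin-MPTP mice than in MPTP mice, and in 6 of the 9 genes the groups did not overlap. Over all 22641 genes tested, 7.08% were lower in irisin-MPTP mice without overlap. None of the 9 genes was called at an adjusted p under 0.05 by edgeR's quasi-likelihood test, where 0.0707% of all genes were called, 3 of the 9 had an unadjusted p under 0.05 against 6.22% of all genes, and DESeq2 called 2. The genes were put forward with results of these tables known, so nothing is read from these counts. The median log2 fold change was −0.74 over the 9 genes and 0.0031 over all genes.

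Nr4a1 was at 9.09, 7.78 and 11.0 CPM in the irisin-MPTP mice, at 23.9, 21.5 and 16.7 CPM in the MPTP mice and at 24.0, 14.8 and 21.03 CPM in the control mice. Each irisin-MPTP mouse lay below all 6 of the others, and the MPTP and control mice overlapped. The log2 fold change of irisin-MPTP to MPTP mice was −1.16 (SE 0.21, 95% interval −1.64 to −0.67), a level 0.448 times that of MPTP mice. Against control mice it was −1.10 (SE 0.21), and from control to MPTP mice it was 0.05 (SE 0.21).

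Ier2 had nearly the same fold change as Nr4a1 between irisin-MPTP and MPTP mice. It was at 1.69, 1.87 and 2.65 CPM in the irisin-MPTP mice, at 5.40, 6.00 and 3.17 CPM in the MPTP mice and at 4.24, 3.07 and 3.46 CPM in the control mice. The irisin-MPTP mice were again the 3 lowest of the experiment, and MPTP replicate 3 was within the range of the control mice. The log2 fold change of irisin-MPTP mice was −1.23 (SE 0.28) against MPTP mice and −0.79 (SE 0.28) against control mice, and that of MPTP against control mice was 0.44 (SE 0.28).

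Egr1, a common marker of neuronal activation, was at 23.0, 26.5 and 29.3 CPM in the irisin-MPTP mice. It was at 61.1, 31.9 and 49.4 CPM in the MPTP mice and at 78.2, 31.7 and 64.8 CPM in the control mice. The irisin-MPTP mice were the lowest and the most alike, while 1 mouse of each other group lay only just above them. Fitted log2 fold changes were −0.85 (SE 0.33) against MPTP mice and −1.15 (SE 0.33) against control mice. Without MPTP replicate 2, the mouse with choroid plexus markers, the former was −1.08 (SE 0.32), and without MPTP replicate 1 it was −0.63 (SE 0.35).

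Egr2, which in the nervous system is best known for driving myelination by Schwann cells, was near the limit of detection. The irisin-MPTP libraries held 0, 0 and 13 counts, the MPTP libraries 29, 38 and 14 and the control libraries 11, 33 and 24. Such counts gave a fitted log2 fold change of −2.65 with an SE of 1.26 against MPTP mice, and without the mouse with 13 counts both irisin-MPTP libraries are at 0, so that no fold is given. Egr4 was also low, at 9, 34 and 31 counts in irisin-MPTP mice against 45, 36 and 40 in MPTP mice and 49, 34 and 25 in control mice, for a log2 fold change of −0.74 (SE 0.51) against MPTP mice.

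Nr4a3 was low in 2 of the 3 MPTP mice. It was at 12.7, 3.35 and 2.72 CPM in the MPTP mice, at 3.99, 3.57 and 5.10 CPM in the irisin-MPTP mice and at 10.7, 10.0 and 13.2 CPM in the control mice. MPTP replicate 1 lay within the control range, and replicates 2 and 3 lay below every irisin-MPTP mouse. Replicate 1 also had the lowest forebrain sum of the experiment, and the part of forebrain tissue in the levels of Nr4a3 was not tested. The log2 fold change of irisin-MPTP to MPTP mice was −0.57 (SE 0.52), and without MPTP replicate 1 it was 0.47 (SE 0.21). Irisin-MPTP mice were below the control mice without overlap, with a log2 fold change of −1.42 (SE 0.52). MPTP mice against control mice gave −0.85 (SE 0.52), and −1.90 (SE 0.22) without MPTP replicate 1.

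Arc, Npas4 and Egr3 had the smallest fold changes between irisin-MPTP and MPTP mice. Arc was at 16.0, 16.1 and 18.9 CPM in irisin-MPTP mice, at 17.0, 18.8 and 21.8 CPM in MPTP mice and at 28.9, 22.6 and 21.2 CPM in control mice. The irisin-MPTP and MPTP mice overlapped, and the irisin-MPTP mice lay below the control mice without overlap, with a log2 fold change of −0.51 (SE 0.14). Npas4 was at 8.72, 9.01 and 8.34 CPM in irisin-MPTP mice against 9.44, 10.4 and 10.2 CPM in MPTP mice, a log2 fold change of −0.20 (SE 0.19) without overlap, and the control mice spanned both groups at 6.93 to 12.6 CPM. Egr3 was at 3.78 to 4.57 CPM in irisin-MPTP mice, 3.84 to 6.36 CPM in MPTP mice and 2.55 to 6.86 CPM in control mice, with overlap in all comparisons.

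Between irisin-MPTP and control mice, all 9 genes had lower fitted levels and 5 (Egr1, Arc, Nr4a1, Nr4a3 and Ier2) did not overlap, where 6.92% of all genes were lower without overlap. Between MPTP and control mice, none of the 9 was without overlap, 6 had higher and 3 had lower fitted levels. By edgeR, none of the 9 genes was called in either comparison, against 0.0707% of all genes for irisin-MPTP and 0.0221% for MPTP mice. An unadjusted p under 0.05 was found for 5 of the 9 (7.12% of all genes) and for 1 of the 9, Arc (6.03% of all genes), and DESeq2 called 2 and 0. Nothing is read from these counts either, and the 2 comparisons share the control mice.

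**Figure D2:**
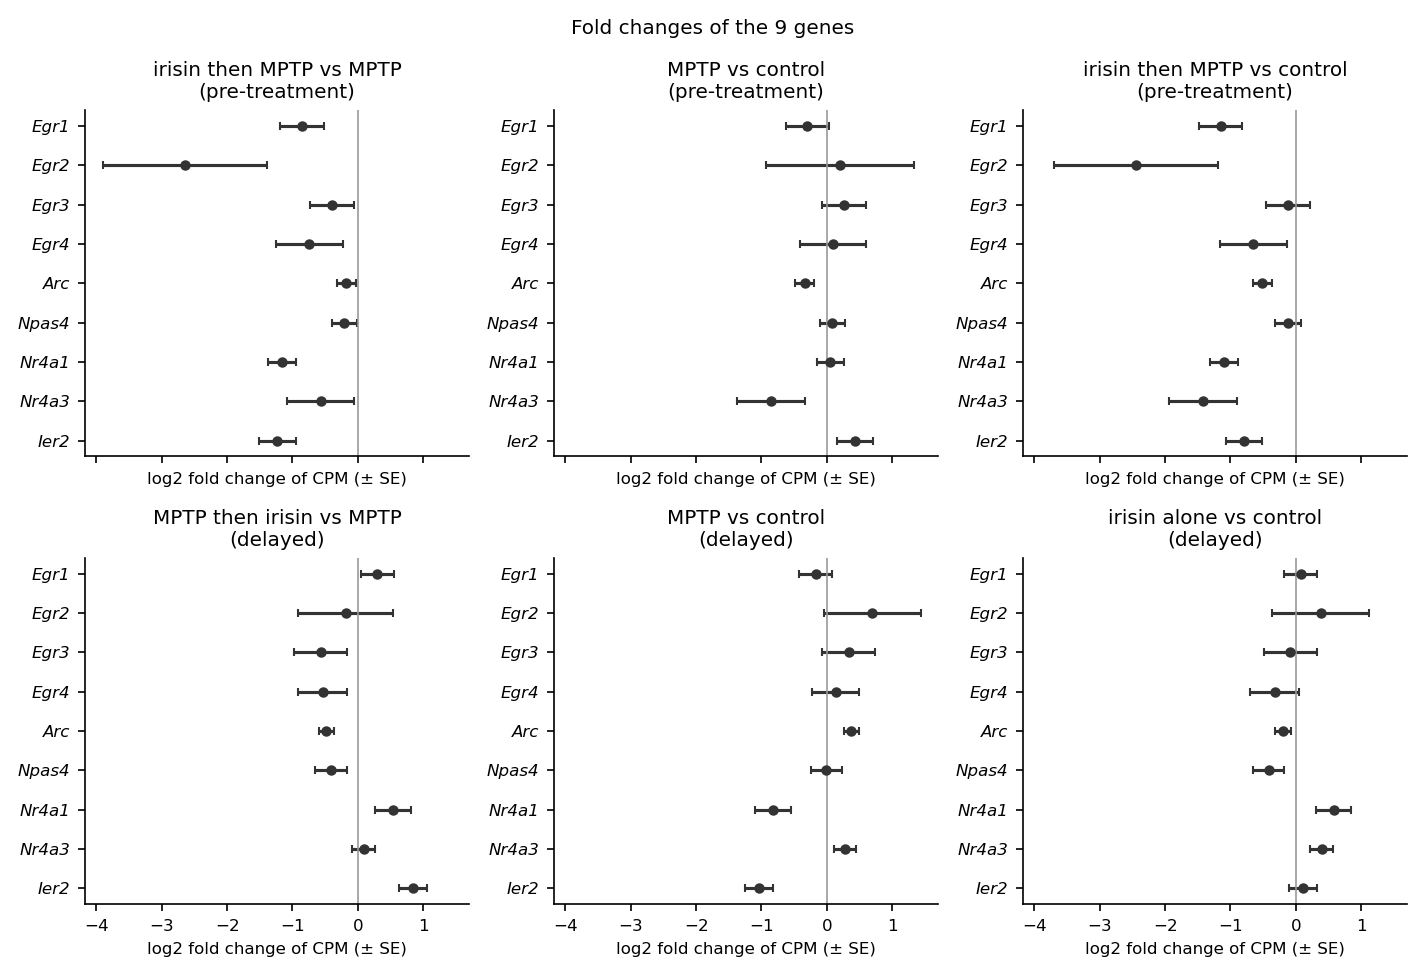
Log2 fold change of CPM from edgeR (horizontal axis) for each of the 9 genes in 6 comparisons; points are the estimates from 3 mice against 3 and bars are ± 1 SE. For irisin-MPTP against MPTP mice all 9 points lie left of 0, with Nr4a1 at −1.16 and Ier2 at −1.23, while for MPTP-irisin against MPTP mice in the delayed experiment Ier2 lies at 0.85 and Arc at −0.48.

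The delayed experiment asked whether irisin given after MPTP alters the expression left by the toxin. None of the 9 genes was called by edgeR in any of its comparisons, and their fold changes had mixed signs. In MPTP-irisin against MPTP mice, 0.00456% of all 21922 genes were called, and 2 of the 9 genes (Arc and Ier2) had an unadjusted p under 0.05, where 3.9% of all genes did, with adjusted p-values of 0.9995 for both. DESeq2 called 0 of the 9. Ier2 was the 1 gene higher in MPTP-irisin mice without overlap (5.35% of all genes), and Arc and Egr4 were the 2 lower without overlap (5.38% of all genes).

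Ier2 was at 3.55, 4.22 and 5.30 CPM in the MPTP mice of the delayed experiment and at 7.04, 9.14 and 7.37 CPM in the MPTP-irisin mice. Control mice had 9.67, 6.49 and 10.7 CPM and irisin mice 8.44, 11.4 and 9.20 CPM. The MPTP mice were the 3 lowest of the 12 and did not overlap with any group. The log2 fold change of MPTP to control mice was −1.04 (SE 0.21, 95% interval −1.51 to −0.56, adjusted p = 0.175 by edgeR), and DESeq2 called this gene with an adjusted p of 0.00271. Over all settings tried, the adjusted p of this change lay between 0.00271 and 0.504. MPTP-irisin mice were higher than MPTP mice by 0.85 (SE 0.21, 95% interval 0.38 to 1.32, adjusted p = 0.9995) on the log2 scale, and against control mice they were at −0.19 (SE 0.21, adjusted p = 0.833).

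Nr4a1 had a like order of groups with wider spread. It was at 12.4, 18.9 and 11.7 CPM in MPTP mice, at 18.0, 20.1 and 24.5 CPM in MPTP-irisin mice, at 22.4, 17.6 and 36.0 CPM in control mice and at 29.5, 41.3 and 42.9 CPM in irisin mice. MPTP replicate 2 reached into the range of the control and the MPTP-irisin mice, and the irisin mice lay above all MPTP and MPTP-irisin mice. On the log2 scale the fold change was −0.82 (SE 0.27, adjusted p = 0.428) for MPTP against control mice and 0.54 (SE 0.27, adjusted p = 0.9995) for MPTP-irisin against MPTP mice. Irisin alone gave 0.58 (SE 0.27, 95% interval −0.01 to 1.18, adjusted p = 0.554) against control mice, with overlap at the control mouse of 36.0 CPM.

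In Arc the MPTP mice were the highest group, where in Ier2 and Nr4a1 they had the lowest mean. It was at 44.0, 50.7 and 38.1 CPM in MPTP mice, at 35.2, 29.6 and 30.2 CPM in MPTP-irisin mice, at 37.4, 30.3 and 34.5 CPM in control mice and at 28.9, 29.9 and 30.4 CPM in irisin mice. The MPTP mice were the 3 highest of the 12, without overlap with any group. The log2 fold change was 0.38 (SE 0.12, adjusted p = 0.398) for MPTP against control mice and −0.48 (SE 0.12, adjusted p = 0.9995) for MPTP-irisin against MPTP mice. A list of 5 forebrain neuron genes, which includes Neurod6, Slc17a7 and Tbr1 and marks a region outside the one sampled, summed to 110 to 168 CPM in these MPTP mice, 88.3 to 128 CPM in MPTP-irisin mice, 90.2 to 130 CPM in control mice and 86.1 to 108 CPM in irisin mice. The part of forebrain tissue in the levels of Arc was not tested. Without MPTP replicate 2, the mouse with the highest sum, the log2 fold change of Arc was 0.27 (SE 0.12) against control mice and −0.37 (SE 0.11) for MPTP-irisin against MPTP mice, both with the same sign.

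Leaving out that mouse turned the sign of 2 Egr genes. Egr3, best known outside the brain for its need in muscle spindles, was at 5.11, 15.6 and 5.85 CPM in MPTP mice, and at 4.89 to 8.73 CPM in the 9 mice of the other groups. Egr2 held 8, 69 and 18 counts in the same MPTP libraries, and 8 to 36 counts in the other 9. For MPTP against control mice, Egr3 had a log2 fold change of 0.34 (SE 0.40, adjusted p = 0.890) with MPTP replicate 2 and −0.36 without it, and Egr2 had 0.70 (SE 0.74, adjusted p = 0.868) with it and −0.31 without it. Egr1 in that mouse, at 76.0 CPM, was also above the other MPTP mice at 48.1 and 45.5 CPM, but within the range of the control mice at 42.2 to 89.5 CPM.

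For Egr1, Egr4 and Npas4, no comparison of the delayed experiment passed the test. Egr1 had a log2 fold change of −0.16 (SE 0.25) for MPTP against control mice and 0.30 (SE 0.25) for MPTP-irisin against MPTP mice, and without MPTP replicate 2 these were −0.44 and 0.57 (SE 0.25 for both). Egr4 was at 0.917, 1.12 and 0.929 CPM in MPTP mice against 0.750, 0.628 and 0.663 CPM in MPTP-irisin mice, without overlap, but the control mice at 0.517 to 1.16 CPM covered both groups and the log2 fold change was −0.54 (SE 0.37, adjusted p = 0.9995). Npas4 averaged 7.33 ± 1.53 CPM (SD, n = 3) in control mice and 7.31 ± 0.835 CPM in MPTP mice, and 5.49 ± 1.71 CPM in irisin mice and 5.50 ± 1.31 CPM in MPTP-irisin mice. The irisin effect on Npas4 was −0.41 (SE 0.24, adjusted p = 0.9995) in mice with MPTP and −0.42 (SE 0.24, adjusted p = 0.627) in mice without it, neither of which passed the test, and the 95% interval of their difference ran from −0.74 to 0.75.

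Over the 9 genes, MPTP against control mice in the delayed experiment gave 0 calls by edgeR (0.132% of all genes were called), 3 unadjusted p-values under 0.05 (Ier2, Nr4a1 and Arc, against 8.33% of all genes) and 1 call by DESeq2. Arc was the 1 gene higher without overlap (8.24% of all genes) and Ier2 the 1 lower without overlap (7.94% of all genes). Irisin alone against control mice gave 0 calls (0.109% of all genes) and 1 unadjusted p under 0.05, that of Nr4a3 (8.97% of all genes), and DESeq2 called 0. Nr4a3 was at 8.98, 8.28 and 9.90 CPM in irisin mice against 6.73, 6.40 and 7.47 CPM in control mice, the 1 gene higher without overlap (7.43% of all genes), with a log2 fold change of 0.40 (SE 0.17, adjusted p = 0.545). The MPTP mice had Nr4a3 at 8.11, 10.0 and 6.92 CPM and the MPTP-irisin mice at 11.0, 7.36 and 8.33 CPM, with overlap between them and with a log2 fold change of 0.09 (SE 0.17, adjusted p = 0.9995). MPTP-irisin against control mice gave 0 calls (0.109% of all genes), none of the 9 with an unadjusted p under 0.05 (9.31% of all genes), and no call by DESeq2. The comparisons with control mice share those 3 control mice.

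The interaction, which tests whether the effect of irisin differed between MPTP mice and mice without MPTP, called none of the 9 genes (0.0411% of all genes), and DESeq2 called 0. An unadjusted p under 0.05 was found for 1 of the 9, Ier2, against 5.57% of all genes. Its irisin effect was 0.85 in MPTP mice and 0.11 (SE 0.21) in mice without MPTP, a difference of 0.74 (SE 0.30, 95% interval 0.07 to 1.40, adjusted p = 0.893). For Nr4a1 the irisin effects of 0.54 and 0.58 differed by −0.04 (SE 0.38, 95% interval −0.88 to 0.80), and for Arc the difference was −0.29 (SE 0.16, 95% interval −0.65 to 0.07).

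In most of these genes, mice of the same group varied more than in the median gene, in some only slightly. Nr4a1 stood at percentile 53.3 of all genes for the pre-treatment mice. For the delayed-treatment mice, Ier2 stood at percentile 53.0 and Npas4 at 56.2. The SD of log2 CPM within groups was above the median gene for 7 of the 9 genes in each experiment, with a median of 0.48 over the 9 genes against 0.27 over all genes for the pre-treatment mice and 0.35 against 0.25 for the delayed-treatment mice. Arc had the smallest spread of the 9 in both, at 0.19 and 0.15, and Egr2 the largest, at 1.40 and 0.89. For Nr4a3 the SD was 0.72 over the 9 pre-treatment mice, where the MPTP group held the split described above, and 0.22 over the 12 delayed-treatment mice.

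Correlations among the 9 genes had both signs in the delayed experiment, with 13 of 36 pairs negative. Over its 12 mice, Nr4a1 and Ier2 had a Pearson r of 0.80 in log2 CPM, Egr1 had 0.61 with Nr4a1 and 0.50 with Ier2, and Arc had 0.63 with Npas4 and 0.62 with Egr4. Arc had −0.74 with Ier2 and −0.55 with Nr4a1. In the 9 mice of the pre-treatment experiment, Nr4a1 and Ier2 again had the highest value of all 36 pairs, 0.92, but Arc had positive values with both, 0.38 with Ier2 and 0.58 with Nr4a1. These correlations are descriptions over mice that share groups, and the group differences are part of them. With the group means subtracted, over all 21 mice, Nr4a1 and Ier2 had 0.59, Egr1 and Nr4a1 0.71, Egr1 and Egr3 0.68, Arc and Npas4 0.53, and Arc and Ier2 0.04.

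**Figure D3:**
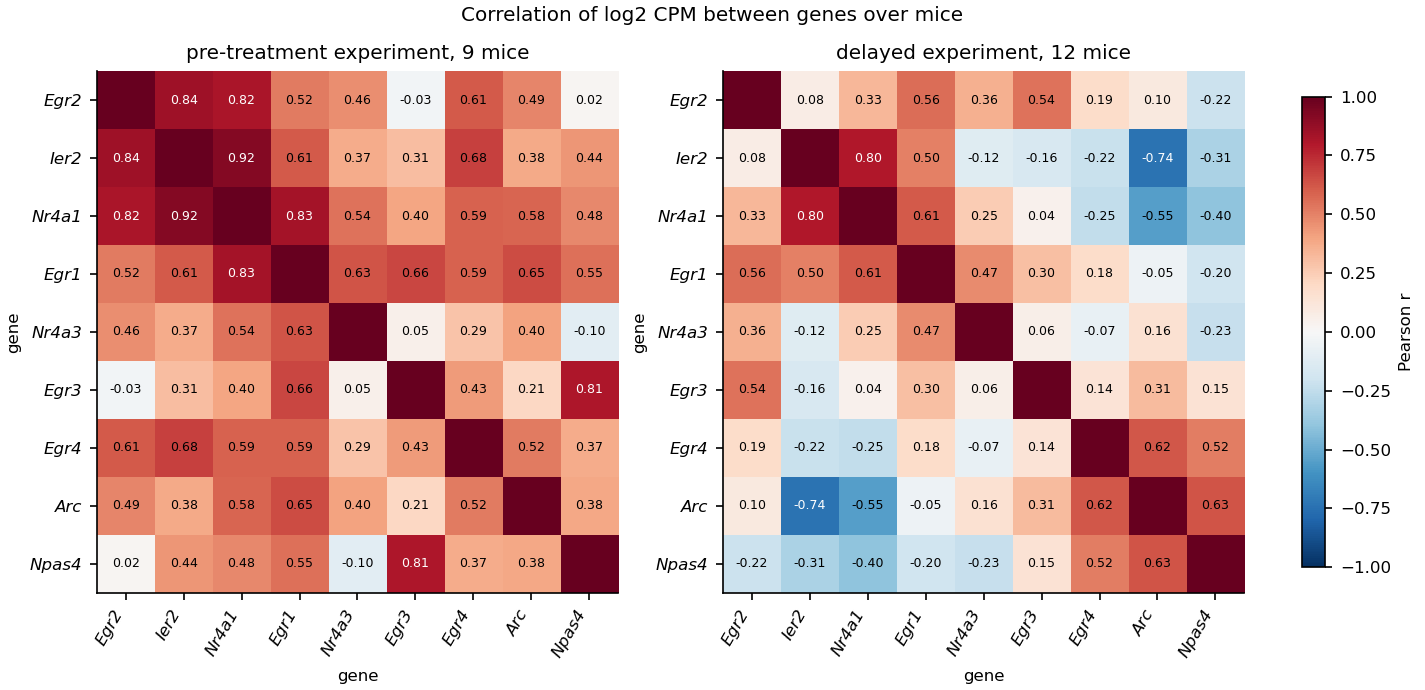
Pearson r of log2 CPM between pairs of the 9 genes over the 9 mice of the pre-treatment experiment (left) and the 12 mice of the delayed experiment (right), with red for positive and blue for negative values. Nr4a1 and Ier2 had r of 0.92 and 0.80, and Arc and Ier2 had 0.38 on the left and −0.74 on the right.

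Genes whose pattern was most like that of the 9 were sought among the 21144 other genes tested in both tables, by Pearson r with the mean of the 9 standardized levels over 21 mice after the mean of each experiment was subtracted. The 10 with the highest r were Fos (0.80), Pde4d (0.76), Ipmk (0.76), Ncan (0.76), Cox4i2 (0.76), Wnt7a (0.74), Slc39a6 (0.74), Kpna2 (0.74), Manba (0.74) and Nkd1 (0.73). Fos encodes the AP-1 subunit c-Fos and Pde4d a phosphodiesterase that breaks down cyclic AMP. Within groups, once the group means were subtracted, r was 0.67 for Fos, 0.77 for Pde4d, 0.74 for Cox4i2 and 0.26 for Nkd1. Of the 9 genes themselves, Egr1 was closest to the mean at 0.87 and Npas4 farthest at 0.38.

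The other rapid immediate-early genes made up a list of 20, which includes the AP-1 and Klf families. In irisin-MPTP against MPTP mice, 5 of the 20 were called lower and 0 higher by edgeR (0.0707% of all genes were called), with a median log2 fold change of −1.01. The called genes were Atf3 (−3.32, SE 0.35, adjusted p = 0.0172), a stress-induced repressor, Klf2 (−2.24, SE 0.15, adjusted p = 0.000926), a flow-responsive factor of endothelium, Klf4 (−2.03, SE 0.14, adjusted p = 0.000926), Fos (−1.88, SE 0.22, adjusted p = 0.0210) and Btg2. DESeq2 called 11 lower and 0 higher. Here and below, the share of all genes that DESeq2 called is not given, so its calls have no background. Against control mice, edgeR called 3 lower (Fos, Klf2 and Btg2), where it called 0.0707% of all genes, and the median was −0.78. DESeq2 called 7 lower. Between MPTP and control mice, edgeR called Klf4 higher (1.39, SE 0.14, adjusted p = 0.0211), where it called 0.0221% of all genes, and the median was 0.20. DESeq2 called 5 higher. The list was drawn up with results of these data known, so its direction is not independent of the values above. Adjusted p-values of its genes, in both experiments, may rest on values used in the choice. Nr4a2 was in the list and was not called, at −0.85 (SE 0.26) in irisin-MPTP against MPTP mice, a value between those of Nr4a1 and Nr4a3.

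In the delayed experiment, edgeR called 1 of the 20 lower in MPTP than in control mice (0.132% of all genes were called), Btg2 (−1.89, SE 0.27, adjusted p = 0.0236), an inhibitor of proliferation, DESeq2 called 5 lower, and the median was −0.52 against −0.0013 over all genes. None was called in MPTP-irisin against MPTP mice, where the median was 0.30, 6 of the 20 had an unadjusted p under 0.05 against 3.9% of all genes, all of them higher, and the 2 with the smallest p were Dusp1 (1.0004, SE 0.19) and Btg2 (1.28, SE 0.27), both with an adjusted p of 0.843 by edgeR, and DESeq2 called 2 higher. Irisin alone gave no call, a median of 0.24 and 4 unadjusted p-values under 0.05 against 8.97% of all genes, all higher, with the smallest p for Fosl2 (0.41, SE 0.15, adjusted p = 0.505) and Maff (0.60, SE 0.24, adjusted p = 0.531), and DESeq2 called 0. Nr4a2 had −0.58 (SE 0.18, adjusted p = 0.398) for MPTP against control mice and 0.32 (SE 0.18, adjusted p = 0.9995) for MPTP-irisin against MPTP mice, the same signs as Nr4a1. The summed level of the 20 genes was 247 to 276 CPM in MPTP mice, 300.1 to 355 CPM in MPTP-irisin mice, 313 to 444 CPM in control mice and 393 to 475 CPM in irisin mice, and in the pre-treatment experiment it was 156 to 165 CPM in irisin-MPTP mice, 278 to 330.0 CPM in MPTP mice and 225 to 273 CPM in control mice.

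The lists further down and further up the same pathway held no called gene. Of 13 late activity genes, which include Bdnf, Homer1 and Nptx2, edgeR and DESeq2 called 0 in every comparison. In each comparison, 0 to 3 of them had an unadjusted p under 0.05, where 3.9% to 9.31% of all genes did. The 3 were lower in irisin-MPTP than in MPTP mice, where 6.22% of all genes had such a p. The median log2 fold change of the list in that comparison was −0.18. There, Crem (−0.55, SE 0.15), a CREB-family gene with an inducible repressor, and Gpr3 (−0.46, SE 0.14) had the smallest p. In the delayed experiment, Homer1 had 0.52 (SE 0.17, adjusted p = 0.412) for MPTP against control mice. Of 21 upstream factors, among them Srf, Elk1, Creb1 and Mef2c, edgeR and DESeq2 likewise called 0 in every comparison. In each comparison, 0 to 2 of them had an unadjusted p under 0.05. The 2 were higher in MPTP than in control mice of the pre-treatment experiment, where 6.03% of all genes had such a p. None had such a p in irisin-MPTP against MPTP mice, where the median was −0.04. The corepressor Nab2 was at −0.11 (SE 0.18) there and at 0.12 (SE 0.12) in MPTP-irisin against MPTP mice.

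**Figure D4:**
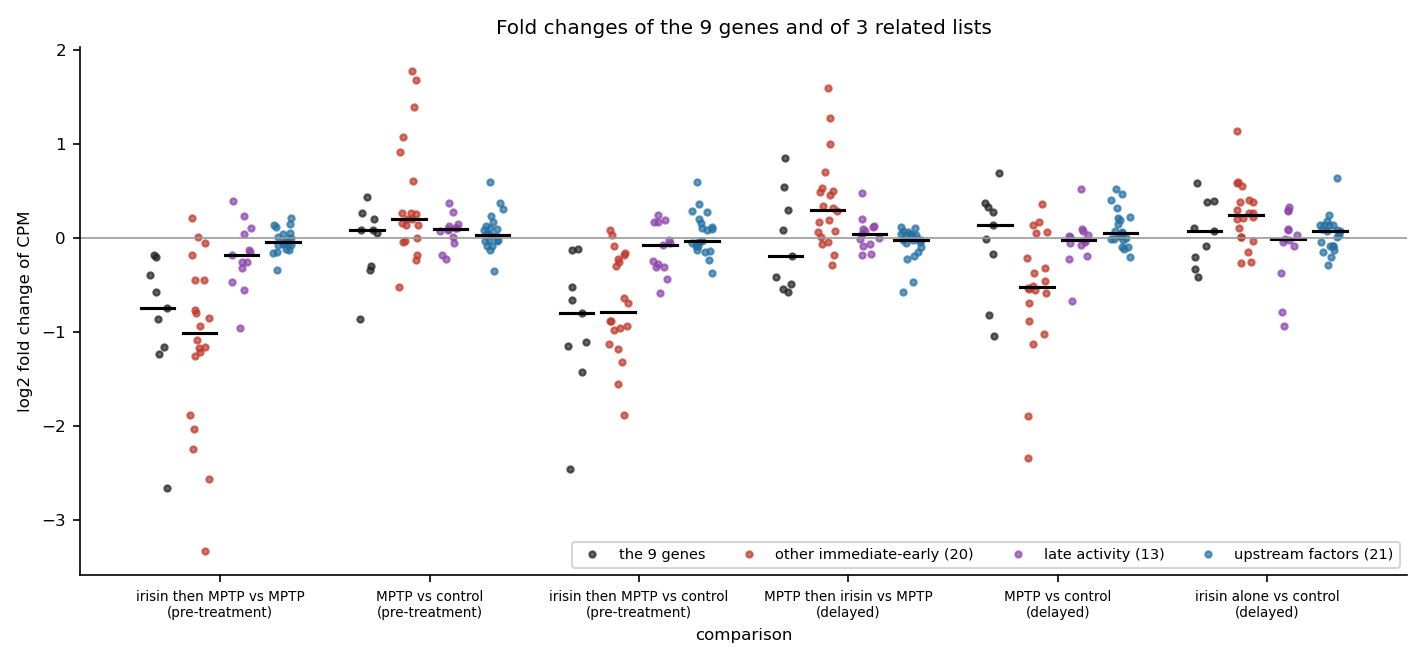
Log2 fold change of CPM (vertical axis) of the 9 genes, of 20 other immediate-early genes, of 13 late activity genes and of 21 upstream factors in 6 comparisons; each point is a gene and the black bar is the median of its list. The medians of the 9 genes and of the 20 others were −0.74 and −1.01 in irisin-MPTP against MPTP mice, where the late and upstream lists were at −0.18 and −0.04, and the 20 others were at −0.52 in MPTP against control mice of the delayed experiment and at 0.30 in MPTP-irisin against MPTP mice.

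Some markers of other cells and of stress differed between groups in the pre-treatment experiment, while others overlapped. The sum of 4 microglial genes was 36.0 to 44.0 CPM in irisin-MPTP mice, 39.9 to 43.9 CPM in MPTP mice and 40.7 to 48.1 CPM in control mice. For 4 oligodendrocyte genes it was 7710 to 9590, 7113 to 9420 and 7781 to 12097 CPM, likewise with overlap. The sum of 5 red blood cell genes was 231 to 455 CPM in irisin-MPTP mice, 549 to 810 CPM in MPTP mice and 530 to 826 CPM in control mice, with no listed gene at 0, and the summed level of the 9 genes was 66.4 to 79.8, 96.9 to 137 and 92.6 to 167 CPM in the same groups. Of 6 heat shock genes, 2 were called lower by edgeR in irisin-MPTP than in MPTP mice, Hspa1b (−3.00, SE 0.21, adjusted p = 0.000975), which is nearly identical to Hspa1a and can share reads with it, and Dnajb1 (−0.84, SE 0.11, adjusted p = 0.0460). In that comparison edgeR called 0.0707% of all genes. DESeq2 called 5 of the 6 lower, with no share over all genes given beside it. The heat shock list was drawn up with results of these data known, so these adjusted p-values may rest on values used in the choice. The sum of 4 endothelial genes was 111 to 117 CPM in irisin-MPTP mice, 120 to 132 CPM in MPTP mice and 116 to 138 CPM in control mice. The sum of 4 astrocyte genes was 725 to 824 CPM in irisin-MPTP mice, 837 to 922 CPM in MPTP mice and 710.2 to 952 CPM in control mice. The sum of 4 dopaminergic genes was 165 to 274 CPM in irisin-MPTP mice, 217 to 430.4 CPM in MPTP mice and 217 to 381 CPM in control mice, with overlap between all groups, while the sum of 4 pan-neuronal genes was 4122 to 4233, 3993 to 4101 and 4007 to 4265 CPM. Of the dopaminergic genes, Slc6a3 was at 25.7 to 37.2 CPM in irisin-MPTP mice, below MPTP mice (51.3 to 65.5 CPM) and control mice (58.9 to 106 CPM) without overlap. Th overlapped between all groups, at 21.3 to 34.8, 31.5 to 51.6 and 34.3 to 55.1 CPM. Slc18a2 and Ddc, the rest of that list, are given only within the sum, which overlapped between all groups. In the delayed experiment, the red blood cell sum was 309 to 499.8 CPM in MPTP mice, 383 to 869.6 CPM in MPTP-irisin mice, 459 to 609 CPM in control mice and 468 to 523 CPM in irisin mice. There, the pan-neuronal sum was 3834 to 3981 CPM in MPTP, 3911 to 4123 CPM in MPTP-irisin, 3976 to 4078 CPM in irisin and 4149.7 to 4283 CPM in control mice. The dopaminergic sum was 135 to 223 CPM in MPTP, 137 to 179 CPM in MPTP-irisin, 236 to 263 CPM in irisin and 267 to 307 CPM in control mice. In both sums every treated group lay below the control mice without overlap. Ier2 and Nr4a1 had their lowest means in MPTP mice and their highest in irisin mice. Of the 6 heat shock genes, DESeq2 called 1 higher in MPTP, 2 higher in irisin and 3 higher in MPTP-irisin mice, each against control mice, where edgeR called 0, 0 and 1. Over all genes, edgeR called 0.132%, 0.109% and 0.109% in these comparisons, and the share that DESeq2 called is not given. The part of blood, stress and cell make-up in the levels of the 9 genes was not tested.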

How the data were processed

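Nigral tissue of 21 perfused mice was sequenced on an Illumina NovaSeq instrument, and counts per gene came from featureCounts, per the methods of the study. The authors deposited 2 tables, 1 per experiment, with raw read counts and FPKM per mouse. The submitters' processing notes also name HISAT, StringTie and edgeR with no versions and the build mm9, while the coordinates in the tables are those of GRCm38. Whether counting used strand is not given in the sources used here. FPKM served for levels per length and for alternatives only.

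The 9 genes and all lists were chosen with earlier results of these data known. Counts were filtered with filterByExpr (at least 10 counts, 15 in total), scaled by TMM and tested with edgeR 4.0.16 (quasi-likelihood, Benjamini-Hochberg adjustment over all genes tested) in 1 fit per experiment with a term for each group, and calls used an adjusted p under 0.05. The fits were tested on simulated data. Alternatives were median ratio scaling, no filter, DESeq2 1.42.0, only the compared groups, a replicate block, limma 3.58.1 on log2(FPKM + 1) and log2(FPKM + 0.1), and leaving out each mouse. Log2 CPM used a prior count of 1. The genes named were all 9, up to 4 called genes of a list with the largest change or else the 2 with the smallest p, Nr4a2 and Nab2, and the 10 genes most like the mean. All 21 pairs of mice within a group differed by more than counting noise. Labels name no litters or batches, so p-values measure the spread between these mice. A 3 against 3 exact permutation test cannot go below p = 0.1, so none was used. Some single-gene values are not reported here.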

Additional observations from a re-analysis of the deposited data

Results flagged for a closer look

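The 9 genes and the 20 other immediate-early genes were searched for opposite directions of irisin against MPTP mice in the experiments. In 9 of these 29 genes, and in 1 of the 9 described genes, every irisin-treated mouse lay below every MPTP mouse when irisin came first and above every MPTP mouse when it came after. Of the 21153 genes tested in both tables, 96 (0.454%) had this pattern. Both lists were drawn up with results of these data known, so nothing is read from the difference in these shares. For Ier2, the log2 fold changes were −1.23 (SE 0.28) with irisin before and 0.85 (SE 0.21) with irisin after MPTP. For Fos they were −1.88 (SE 0.22) and 0.49 (SE 0.14), and for Fosb −1.16 (SE 0.29) and 0.53 (SE 0.25). Btg2 had −1.26 (SE 0.14) and 1.28 (SE 0.27), and Dusp1, a MAP kinase phosphatase, had −1.08 (SE 0.26) and 1.0004 (SE 0.19). Klf2 had −2.24 (SE 0.15) and 0.34 (SE 0.16), and Klf4 had −2.03 (SE 0.14) and 0.51 (SE 0.26). Ccn1, which encodes a matricellular protein, had −2.56 (SE 0.37) and 1.60 (SE 0.44), and Sik1 had −0.94 (SE 0.15) and 0.46 (SE 0.15). The difference between the experiments was not tested, since the tables were normalized separately and hold different mice. MPTP ended the treatment in one experiment and was followed by 5 days of irisin or ddH2O in the other, so order and time since MPTP cannot be told apart.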

How the results depend on the processing

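Of 109 alternative counts of called genes among the 9, 106 stayed at 0, and 3 rose under DESeq2, to 2 for irisin-MPTP against MPTP mice, 2 for irisin-MPTP against control mice and 1 (Ier2) for MPTP against control mice of the delayed experiment. The share of all genes that DESeq2 called is not given, so nothing is read from these counts. The cause was not tested. Replicate numbers did not pair the mice (correlations of deviations −0.07 to 0.09 and −0.08 to 0.04), and with the replicate block 0 of the 9 genes were called. In the delayed experiment, 48 single-gene values changed sign. Npas4 in MPTP against control mice of the delayed experiment (−0.0042) came to 0.00074 with median ratio scaling, 0.0039 with the replicate block, 0.0048 with DESeq2, 0.0098 without a filter, and 0.018 and 0.031 on log2(FPKM + 1) and log2(FPKM + 0.1). Its interaction (0.0061) came to −0.017 without a filter, −0.012 with the replicate block, −0.012 and −0.016 on the FPKM scales and −0.0048 with DESeq2. The rest turned with 1 mouse left out. In MPTP-irisin against MPTP mice, values then lay at −0.81 to 0.82 for Egr2, −0.84 to 0.13 for Egr3 and −0.089 to 0.25 for Nr4a3. In MPTP against control mice of the delayed experiment, they lay at −0.44 to 0.17 for Egr1, −0.31 to 1.30 for Egr2, −0.36 to 0.61 for Egr3, −0.14 to 0.35 for Egr4 and −0.12 to 0.17 for Npas4. For irisin alone they lay at −0.14 to 0.41 for Egr1, −0.31 to 0.10 for Egr3 and −0.070 to 0.26 for Ier2, and for MPTP-irisin against control mice at −0.089 to 0.47 for Egr1, −0.11 to 1.11 for Egr2 and −0.48 to 0.066 for Nr4a1. For the interaction they lay at −0.11 to 0.49 for Egr1, −1.19 to 0.43 for Egr2, −0.76 to 0.21 for Egr3, −0.47 to 0.064 for Egr4, −0.21 to 0.30 for Npas4 and −0.38 to 0.21 for Nr4a1. In the pre-treatment experiment, values over all alternatives also took both signs. Irisin-MPTP against MPTP mice gave −0.93 to 0.475 for Nr4a3. Irisin-MPTP against control mice gave −0.41 to 0.30 for Egr3 and −0.30 to 0.14 for Npas4. MPTP against control mice gave −0.14 to 0.58 for Egr2, −0.019 to 0.69 for Egr3 and −0.13 to 0.38 for Egr4. In that comparison, Npas4 lay at −0.094 to 0.34 and Nr4a1 at −0.12 to 0.20. Counts limit Egr2 and Egr4: on log2(FPKM + 1), Egr2 in irisin-MPTP against MPTP mice was −0.11. Of the 10 genes most like the mean, 5 were shared when ranked by Spearman's rho and 1 when group means were subtracted.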
